A study of Homo sapiens with 9 samples.

Results

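Chemokines and feedback genes of the transcription factor NF-kB were followed in HepG2 cells given GC-1, T3 or vehicle. The members were 9 genes: the chemokines CCL20, CCL2, CXCL8, CXCL1 and CXCL2, the NF-kB inhibitors NFKBIA and TNFAIP3, the adhesion molecule ICAM1 and the apoptosis inhibitor BIRC3. They were found as the probe sets whose array annotation names exactly 1 of these symbols. This gave 12 probe sets for 8 of the 9 genes, out of 11963 genes with such a probe set and 22215 probe sets that are not array controls. No probe set names BIRC3 alone, so its expression was not analysed here.

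HepG2 is an established human hepatoma line, and all groups had been washed and moved to medium with serum depleted of thyroid hormone. The groups were 10 nM GC-1 for 24 h, 10 nM T3 for 24 h and vehicle for 24 h, with 3 Affymetrix arrays each and 9 in all. T3 (triiodothyronine) is the active thyroid hormone, and GC-1 (sobetirome) is an iodine-free synthetic ligand of its nuclear receptors with a preference for the beta form. The series asks whether both ligands regulate the same genes. No label states whether the replicates were grown apart, so each p-value reflects the spread among these arrays, part of which may be technical.

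Signals are log2 values made with RMA, and a difference of 1 is a 2-fold change. As array signals of different probe sets are on different scales, differences between groups were taken only within a probe set. The 7 hepatocyte markers checked, albumin (ALB) and alpha-fetoprotein (AFP) among them, lay between 11.59 and 14.54 on all arrays. Of 5 leukocyte and macrophage markers measured, PTPRC (4.86 to 5.09), CD163 (5.95 to 6.22), MS4A1 (6.37 to 6.70) and CD3E (6.77 to 7.22) had the lower signals and lysozyme (LYZ) read 12.34 to 12.73. The 4 endothelial markers lay between 4.72 and 6.84 and the 4 fibroblast and stellate markers between 4.93 and 9.28. Less RNA per cell and fewer cells with the RNA cannot be told apart in such bulk samples. The interquartile range of all signals was 2.99 and 2.97 log2 units on T3 replicates 1 and 2, against 2.83 to 2.88 on the other 7 arrays. When limma weighted arrays by how closely they followed their group, T3 replicate 3 had a weight of 0.30, against 0.78 to 1.71 for the others. Fits that equalise the range or leave out these arrays are given where they change a call.

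NF-kB is held in the cytoplasm by inhibitor proteins until signals from receptors for tumour necrosis factor, interleukin 1 or microbial products destroy these inhibitors. Freed NF-kB switches on chemokine and adhesion genes and also the genes of its own inhibitors, which end the response. Hepatocytes and hepatoma cells use this pathway to recruit leukocytes, and NF-kB target genes read out its activity only in part, since other factors act on the same promoters.

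At an adjusted p under 0.05 in limma, 3 of the 12 probe sets changed with GC-1. NFKBIA and CXCL2 were higher and CCL20 was lower. This is 25.0%, where 2.80% of all probe sets passed in the same comparison, 1.81% higher and 0.986% lower. That background moved with the fit, to 706 probe sets higher and 729 lower with array weights and 602 and 670 without T3 replicate 3, against 403 and 219 as reported. It was 214 to 230 higher and 54 to 66 lower when 1 GC-1 or vehicle array was left out. With T3, 2 of the 12 changed (16.7%, against 5.50% of all), both of them higher (4.00% of all), and these were NFKBIA and 1 of 3 ICAM1 probe sets. Over all probe sets the T3 split was 888 higher and 334 lower, and 662 and 505 with equal median and median absolute deviation of all arrays. No change of these probe sets reached 1.5-fold. The median difference of the 12 probe sets was -0.007 with GC-1 and 0.007 with T3, beside -0.004 and -0.015 for all probe sets. Members that passed lay on both sides of zero. The members were chosen with earlier results of these data known, and some genes have several probe sets. Their shares beside those of all probe sets are therefore a description. All calls with GC-1 were lost when any 1 vehicle or GC-1 array was left out (0 of 12 in each such fit). With T3, NFKBIA stayed past the threshold in every one of the 19 alternative fits. The ICAM1 call was lost in 9 of the 19.

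**Figure D1:**
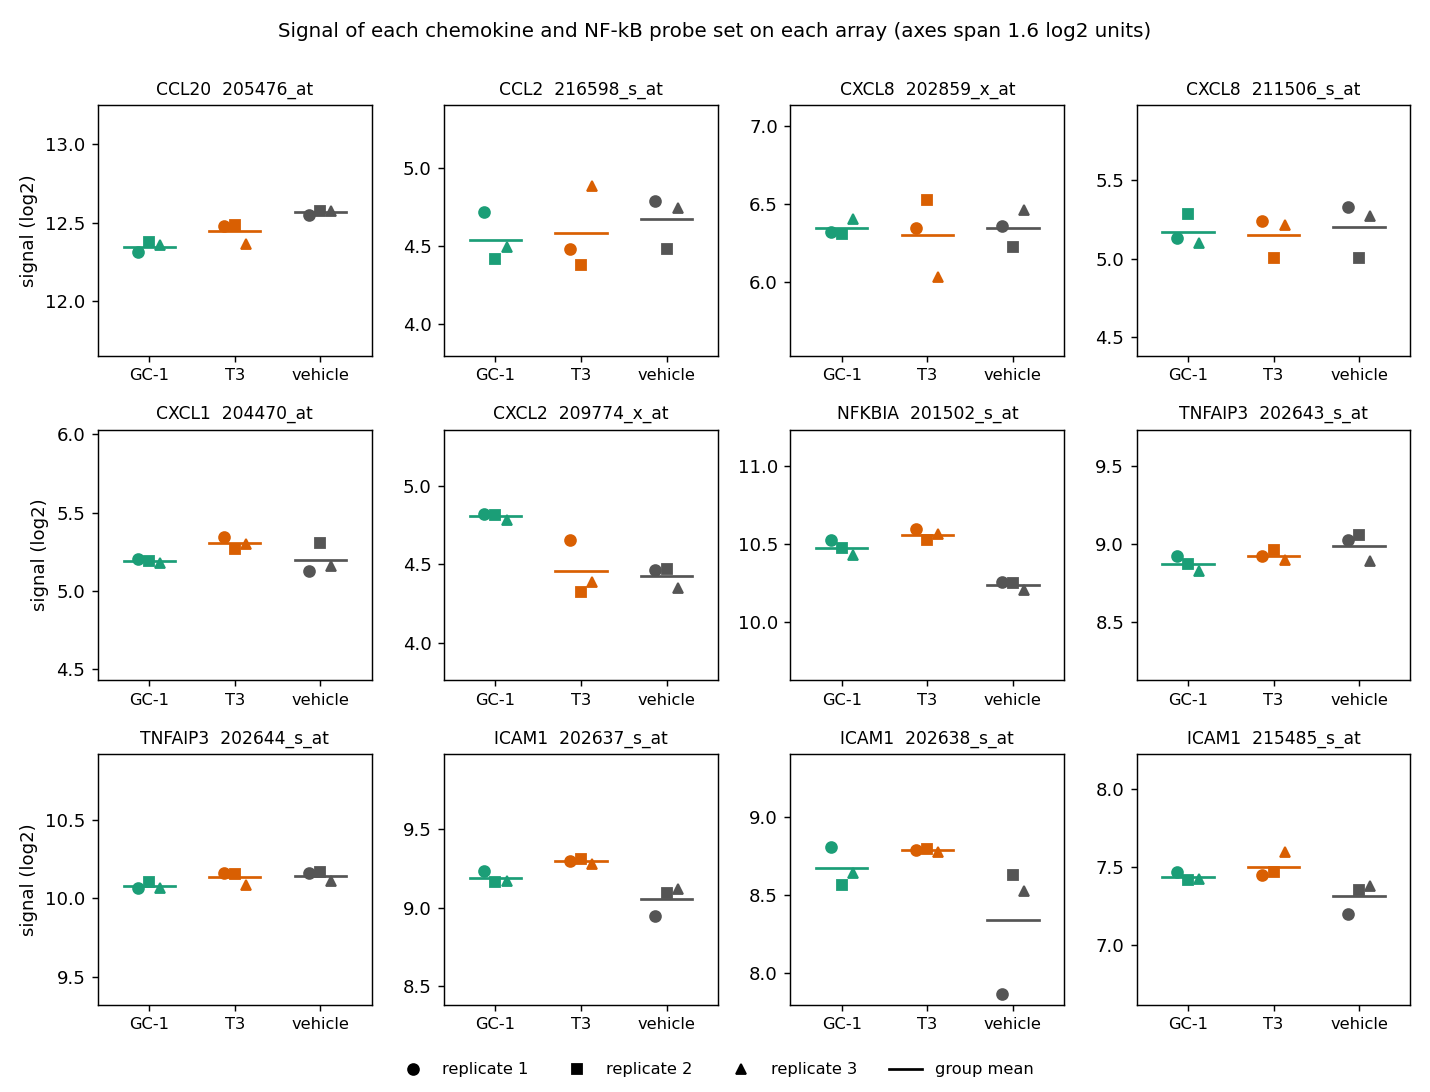
Log2 signal of the 12 probe sets on each of the 9 arrays, by group, with the replicate shown by the symbol and the group mean by a bar. Each axis spans 1.6 log2 units. All GC-1 and T3 arrays lie above the vehicle arrays in NFKBIA and below them in CCL20, and the GC-1 arrays alone stand out in CXCL2.

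NFKBIA encodes IkB-alpha, the inhibitor that binds NF-kB in the cytoplasm and is itself made in response to it. Its probe set 201502_s_at read 10.526, 10.475 and 10.428 with GC-1, 10.593, 10.526 and 10.564 with T3 and 10.257, 10.252 and 10.208 with vehicle. All 6 ligand arrays lay above all 3 vehicle arrays, and the groups of the 2 ligands touched at 10.526. NFKBIA rose 1.18-fold with GC-1 (log2 0.24 ± 0.049 SE, n = 3 per group, adjusted p = 0.0264, limma) and 1.25-fold with T3 (log2 0.32 ± 0.049 SE, adjusted p = 0.00285). In both cases the difference was several times the SD within groups, which was 0.0490 with GC-1, 0.0336 with T3 and 0.0270 with vehicle. GC-1 was 0.08 below T3 (95% interval -0.19 to 0.02, adjusted p = 0.451). When every array was scaled to the same median and median absolute deviation, that order turned (0.02), while both rises kept their direction. The GC-1 call was lost in 7 of 19 alternative fits, and the T3 call was kept in all 19.

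TNFAIP3 encodes A20, a ubiquitin-editing enzyme that shuts off signalling from the receptors to NF-kB. Its probe set 202643_s_at read 8.926, 8.873 and 8.827 with GC-1, 8.924, 8.960 and 8.896 with T3 and 9.023, 9.055 and 8.893 with vehicle. The groups overlapped. Its second probe set, 202644_s_at, read 10.068, 10.101 and 10.066 with GC-1, 10.163, 10.152 and 10.084 with T3 and 10.160, 10.165 and 10.108 with vehicle. Here the GC-1 arrays lay just below the vehicle arrays, and the T3 arrays overlapped both. Neither probe set passed the test. The differences were -0.12 and -0.07 with GC-1 (adjusted p = 0.355 and 0.553) and -0.06 and -0.01 with T3 (adjusted p = 0.567 and 0.921). The 95% intervals reached from -0.24 to 0.04 for GC-1 and from -0.19 to 0.09 for T3 over both probe sets, so a rise of the size measured in NFKBIA lay outside them.

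ICAM1 is a surface protein to which leukocyte integrins bind and a common NF-kB target. Its probe set 202637_s_at read 9.234, 9.166 and 9.170 with GC-1, 9.301, 9.313 and 9.282 with T3 and 8.947, 9.092 and 9.119 with vehicle. The 3 groups did not overlap, with T3 highest and vehicle lowest. ICAM1 rose 1.19-fold with T3 by this probe set (log2 0.25 ± 0.056 SE, adjusted p = 0.0270), and its value with GC-1 was 0.14 ± 0.056 SE (adjusted p = 0.255). The T3 difference stayed between 0.19 and 0.28 in the 19 alternative fits, and its call was lost in 9. It was lost when 1 array was left out, without vehicle replicate 1 (adjusted p = 0.107) or 2 (0.0566) and without T3 replicate 1 (0.0759) or 2 (0.0634), and without both of these T3 arrays (0.114). It was also lost with equal median and median absolute deviation (adjusted p = 0.0704), with the interquartile range as covariate (0.0859), with only the groups compared (0.0704) and with the replicate number as a block. The second probe set, 202638_s_at, read 8.809, 8.563 and 8.642 with GC-1, 8.790, 8.796 and 8.776 with T3 and 7.869, 8.631 and 8.527 with vehicle. Vehicle replicate 1 stood well below the other vehicle arrays here, and it was the lowest array in the other ICAM1 probe sets too. The third, 215485_s_at, read 7.470, 7.419 and 7.424 with GC-1, 7.446, 7.466 and 7.593 with T3 and 7.200, 7.355 and 7.380 with vehicle.

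In these further ICAM1 probe sets the T3 arrays lay above all vehicle arrays, and the GC-1 arrays did so in 215485_s_at. Neither passed the test. With GC-1 the differences were 0.33 (adjusted p = 0.338) and 0.13 (adjusted p = 0.359), and with T3 they were 0.44 (adjusted p = 0.132) and 0.19 (adjusted p = 0.108). Without vehicle replicate 1, the differences of 202638_s_at shrank to 0.09 with GC-1 and 0.21 with T3. All 3 ICAM1 probe sets were thus higher than vehicle with both ligands, in all 19 alternative fits, and as reported 1 of them passed, with T3. Which one passed depended on the fit. With the interquartile range as covariate, 215485_s_at passed with T3 (0.29, adjusted p = 0.0452) and 202637_s_at did not (0.24, adjusted p = 0.0859).

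The promoters of NFKBIA and ICAM1 are shown as those of the members that passed with T3, ICAM1 by 1 of its 3 probe sets. NFKBIA passed with GC-1 too, and ICAM1 did not. The 250 bases before the start site are given 5′ to 3′ on the gene's strand (RefSeq, GRCh38.p14), chr14:35404750-35404999 on the minus strand and chr19:10270870-10271119 on the plus strand. Capitals mark a match to the NF-kB consensus or to the 9-base core GGAATTTCC on either strand, and matches of both motifs may overlap.
NFKBIA: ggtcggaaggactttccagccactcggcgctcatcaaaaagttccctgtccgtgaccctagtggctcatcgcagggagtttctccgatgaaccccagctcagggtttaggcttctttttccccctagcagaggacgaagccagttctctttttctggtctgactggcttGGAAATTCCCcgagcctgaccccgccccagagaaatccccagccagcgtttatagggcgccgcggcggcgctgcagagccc
ICAM1: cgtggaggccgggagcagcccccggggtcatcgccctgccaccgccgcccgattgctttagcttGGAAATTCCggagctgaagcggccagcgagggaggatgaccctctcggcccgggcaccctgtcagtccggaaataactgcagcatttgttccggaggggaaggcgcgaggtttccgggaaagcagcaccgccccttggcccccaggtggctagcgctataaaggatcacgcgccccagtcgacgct
The NFKBIA match begins 81 bases before the start site and holds both motifs, while ICAM1 has the core alone, 186 bases before it. Of 35116 promoter windows of this length, 9.96% hold the consensus and 0.41% the core. The table held the promoters of 8 members, among them BIRC3, whose expression was not analysed, and not CCL2. Of these 8, 6 hold the consensus (BIRC3 included) and 5 the core. These genes were chosen as NF-kB targets and the core was chosen with the promoters in view, so the counts are a description. The thyroid hormone receptor element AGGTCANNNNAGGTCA was found in 0 of the 8 and in 5 of all windows. So rare an exact match would hardly be met in 8 windows, and its absence there says nothing about receptor binding.

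CCL20 encodes a chemokine that attracts lymphocytes and dendritic cells through the receptor CCR6. Its probe set 205476_at read 12.315, 12.374 and 12.355 with GC-1, 12.481, 12.487 and 12.366 with T3 and 12.552, 12.574 and 12.574 with vehicle. All ligand arrays lay below all vehicle arrays, and T3 replicate 3 lay among the GC-1 arrays. CCL20 fell 1.16-fold with GC-1 (log2 -0.22 ± 0.05 SE, adjusted p = 0.0450) and had a difference of -0.12 ± 0.05 SE with T3 (adjusted p = 0.194). The mean signal was higher than that of 98.4% of probe sets, a range in which array signals can flatten, and whether this shortened the differences was not tested. The GC-1 minus T3 difference was -0.10 (95% interval -0.21 to 0.01, adjusted p = 0.414).

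The call of CCL20 with GC-1 sat at the threshold and was lost in 11 of 19 alternative fits, although its value stayed between -0.23 and -0.16. Equal median and median absolute deviation of all arrays gave -0.16 with GC-1 (adjusted p = 0.165) and -0.23 with T3 (adjusted p = 0.0292), which turned the order of the ligands. With trend and robust variance in limma, T3 passed as well, at its reported difference of -0.12 (adjusted p = 0.024). Without T3 replicates 1 and 2, the arrays with the wider range, GC-1 stood at -0.22 (adjusted p = 0.0254) and T3 at -0.20 (adjusted p = 0.0765). In that fit the lone T3 array is assumed to spread as the remaining groups do. CCL20 was lower than vehicle with both ligands in every fit.

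The CCL20 promoter (chr2:227813592-227813841, plus strand) is shown as that of the member that fell with GC-1. It has a consensus match 79 bases before the start site and no match to the core.
CCL20: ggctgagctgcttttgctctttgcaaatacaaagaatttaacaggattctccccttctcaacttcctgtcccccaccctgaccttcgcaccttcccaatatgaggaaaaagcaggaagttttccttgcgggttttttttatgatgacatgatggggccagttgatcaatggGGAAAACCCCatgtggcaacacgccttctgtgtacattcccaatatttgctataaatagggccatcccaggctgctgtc

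The genes whose signals over the 9 arrays most resembled those of CCL20 were SYNCRIP (Pearson r = 0.974), TIPIN (0.964), RRS1 (0.955), GAR1 (0.952) and ENC1 (0.951), among 1378 probe sets with a range of at least 0.5 log2 units. The 9 arrays fall into 3 groups, so this likeness includes the order of the groups, and no test was made of it. All 5 were lowest with GC-1, as CCL20 was, which the choice by likeness favours. Their differences ranged from -0.74 in ENC1 to -0.35 in RRS1 with GC-1, and from -0.41 in ENC1 to -0.23 in RRS1 with T3. In limma, RRS1 did not pass with GC-1 (adjusted p = 0.0612), and GAR1 alone passed with T3 (adjusted p = 0.0416).

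CXCL2 attracts neutrophils through CXCR2, as do its close relatives CXCL1 and CXCL8. Its probe set 209774_x_at read 4.823, 4.814 and 4.784 with GC-1, 4.653, 4.322 and 4.390 with T3 and 4.465, 4.473 and 4.348 with vehicle. The GC-1 arrays lay above all others, and the T3 and vehicle arrays overlapped. CXCL2 rose 1.30-fold with GC-1 (log2 0.38 ± 0.079 SE, adjusted p = 0.0282) and had a difference of 0.03 with T3 (adjusted p = 0.886). The GC-1 call was lost in 7 of 18 alternative fits, without any 1 of the GC-1 or vehicle arrays (adjusted p from 0.0760 to 0.126) and with equal median and median absolute deviation (0.34, adjusted p = 0.0611). This signal was dim. Only 4.5% of all probe sets had a lower mean, no detection call was at hand, and the probe set is of a type that can bind transcripts of related genes.

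CXCL1 and CXCL3, each by its own probe set, did not show the rise of CXCL2 with GC-1. These probe sets cannot show what the CXCL2 probe set binds, and its binding of related transcripts was not tested. The CXCL1 signal was low too, with 12.9% of all probe sets lower in mean. CXCL1, by 204470_at, read 5.205, 5.193 and 5.176 with GC-1, 5.348, 5.267 and 5.303 with T3 and 5.128, 5.309 and 5.162 with vehicle. Its T3 arrays lay above its GC-1 arrays, and the vehicle arrays overlapped both. The differences were -0.01 with GC-1 (adjusted p = 0.967) and 0.11 with T3 (adjusted p = 0.315). CXCL3, another neutrophil chemokine of the same cluster, was dim, with means of 4.85 with GC-1, 4.93 with T3 and 4.94 with vehicle. It had differences of -0.10 with GC-1 (adjusted p = 0.630) and -0.02 with T3 (adjusted p = 0.927).

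The promoters of CXCL1 (chr4:73869143-73869392, plus strand) and CXCL2 (chr4:74099196-74099445, minus strand) are set side by side because they are alike in part, with 181 identical bases in a window of 250 after alignment (72.4%). Both carry the same 11 bases in capitals, a consensus match on each strand that contains the core, 79 and 78 bases before their start sites.
CXCL1: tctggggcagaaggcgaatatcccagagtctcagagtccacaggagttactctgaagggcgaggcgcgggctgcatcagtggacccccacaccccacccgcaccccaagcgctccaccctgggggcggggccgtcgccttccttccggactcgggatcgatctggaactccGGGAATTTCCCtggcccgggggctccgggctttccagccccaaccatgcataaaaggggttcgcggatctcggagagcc
CXCL2: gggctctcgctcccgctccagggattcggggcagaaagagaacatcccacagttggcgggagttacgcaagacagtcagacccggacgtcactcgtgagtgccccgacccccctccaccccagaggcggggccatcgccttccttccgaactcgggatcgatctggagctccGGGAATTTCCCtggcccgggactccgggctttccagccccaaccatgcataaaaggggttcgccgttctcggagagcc
CXCL8 shared 90 bases (36.0%) with CXCL1 and 104 bases (41.6%) with CXCL2 by the same alignment. The CXCL8 window holds the core alone, 91 bases before the start site, with the AP-1 motif TGACTCA 137 bases before it.

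CXCL8, interleukin 8, had 2 probe sets and changed in neither. By 202859_x_at it read 6.318, 6.308 and 6.404 with GC-1, 6.346, 6.528 and 6.034 with T3 and 6.361, 6.224 and 6.460 with vehicle. By 211506_s_at it read 5.130, 5.285 and 5.100 with GC-1, 5.239, 5.002 and 5.217 with T3 and 5.330, 5.002 and 5.273 with vehicle. All groups overlapped in both. The differences lay between -0.05 and -0.01, with adjusted p from 0.815 to 0.990, and the 95% intervals reached from -0.28 to 0.23 over both ligands and probe sets. A change as large as that of NFKBIA with T3 lay outside these intervals in the fit as reported. That bound depended on the fit for 202859_x_at with T3. Its difference was -0.29 with the interquartile range as covariate and -0.31 without T3 replicates 1 and 2.

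CCL2, which attracts monocytes through CCR2, read 4.718, 4.415 and 4.495 with GC-1, 4.485, 4.383 and 4.884 with T3 and 4.786, 4.484 and 4.745 with vehicle by its probe set 216598_s_at. The groups overlapped, with T3 replicate 3 the highest array. The differences were -0.13 with GC-1 (adjusted p = 0.699) and -0.09 with T3 (adjusted p = 0.752). As with CXCL2, the signal was near the lower end of the arrays, where RMA compresses differences.

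**Figure D2:**
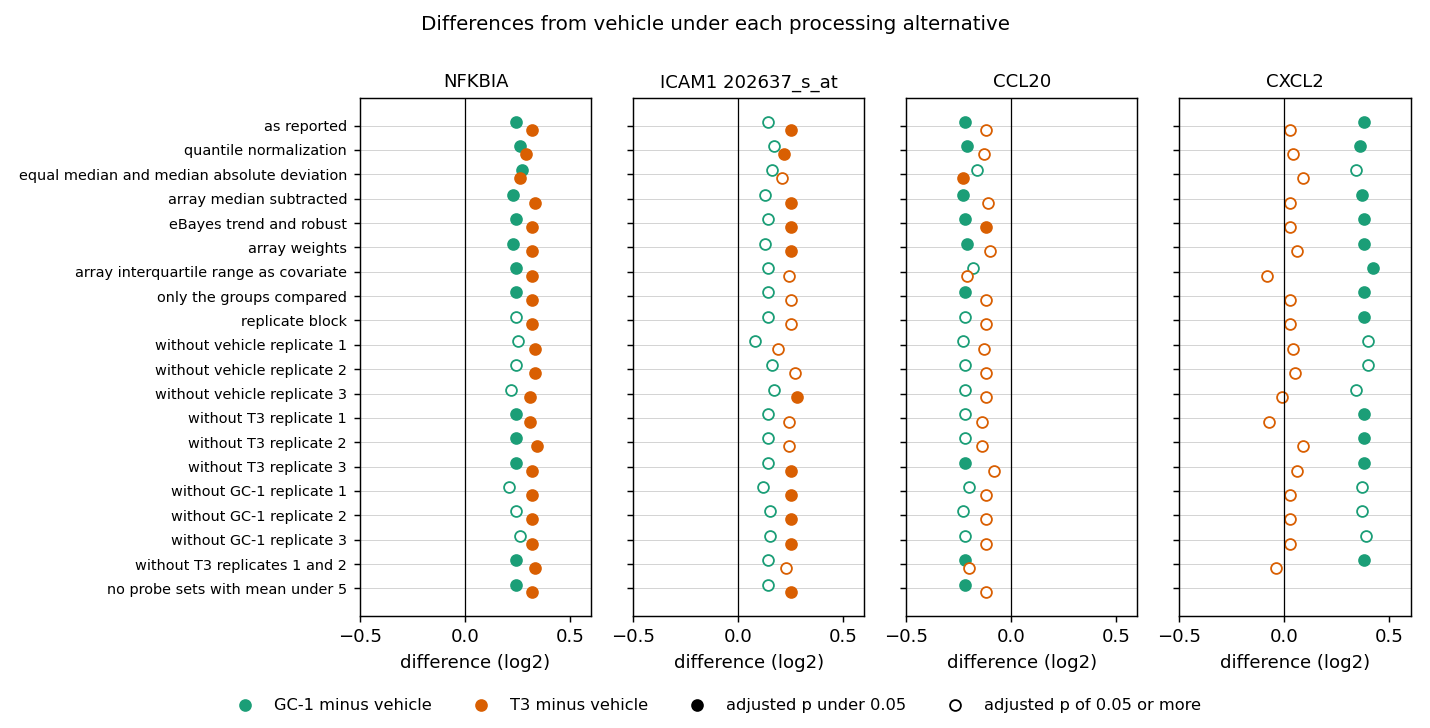
Difference (log2) from vehicle of NFKBIA, ICAM1 (202637_s_at), CCL20 and CXCL2 as reported and under 19 processing alternatives (18 for CXCL2), with GC-1 in green and T3 in orange. Filled points passed at an adjusted p under 0.05. NFKBIA with T3 is filled throughout, while the GC-1 points of NFKBIA, CCL20 and CXCL2 keep their side of zero but lose the call when a GC-1 or vehicle array is left out.

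**Figure D3:**
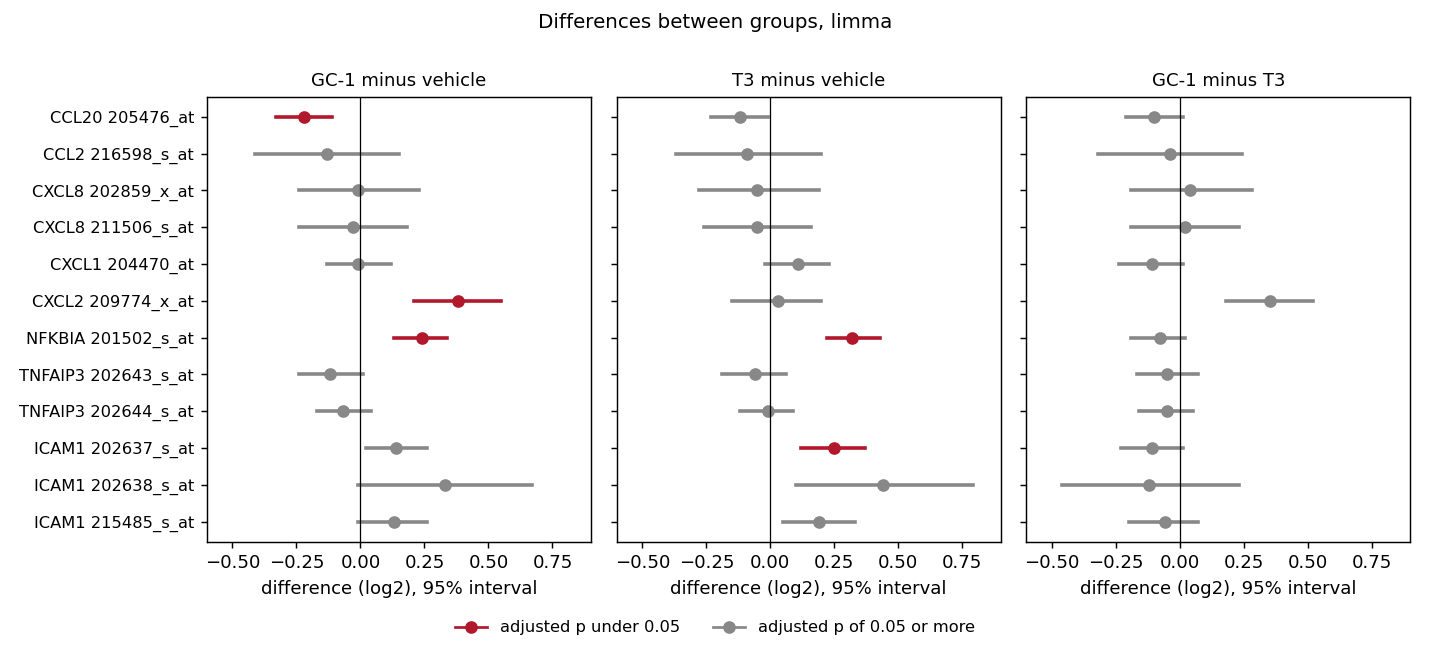
Difference (log2) of each of the 12 probe sets between groups, with its 95% interval from limma, where red marks an adjusted p under 0.05. NFKBIA, CXCL2 and CCL20 pass with GC-1, NFKBIA and 1 ICAM1 probe set pass with T3, and none passes between the ligands.

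The ligands were also set against each other at the matched dose and time, in 12 pairs of means, with p-values adjusted over all 22215 probe sets. None of the 12 differed between GC-1 and T3 at an adjusted p under 0.05, and 0.00% of all probe sets did. Without T3 replicate 3, 338 of all probe sets did and still none of the 12. At an unadjusted p under 0.05, 1 of the 12 passed (8.33%, against 14.1% of all). That one was CXCL2, at 0.35 higher with GC-1 (95% interval 0.18 to 0.52, adjusted p = 0.176 in limma), and its GC-1 arrays lay above all T3 arrays. The call with GC-1 and the lack of one with T3 thus does not show that the ligands differ in CXCL2. The GC-1 arrays lay below all T3 arrays in CXCL1 (-0.11, interval -0.24 to 0.01) and in 202637_s_at of ICAM1 (-0.11, interval -0.23 to 0.01). In all, 3 of 12 had groups that did not overlap (25.0%, against 18.0% of all probe sets).

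A lack of calls here is no evidence of equal effect, and the intervals bound the differences. The widest were those of ICAM1 202638_s_at (-0.46 to 0.23) and CCL2 (-0.32 to 0.24). Both comparisons with vehicle share the same 3 vehicle arrays. Against vehicle, the arrays did not overlap in 6 of 12 probe sets with GC-1 (50.0%, against 26.5% of all) and in 5 of 12 with T3 (41.7%, against 24.9% of all). As with the calls, these shares describe members chosen with earlier results known.

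Other genes of the pathway came from 5 lists of chemokines, their receptors, NF-kB subunits and inhibitors, upstream signalling and further NF-kB targets. The lists were chosen with earlier results of these data known, so their shares are a description. Of 113 genes listed 94 were measured, each by its brightest probe set. With GC-1, 4 rose and 0 fell (4.26% higher, against 2.10% of all 11963 genes), with a median difference of 0.024 beside -0.005 over all genes. With T3, 7 rose and 0 fell (7.45% higher, against 4.51% of all genes), with a median of -0.012 beside -0.017. The lists as a whole thus stayed near zero. By list, the genes that rose with T3 were 5 of 29 further NF-kB targets (17.2%), 1 of 23 chemokines and 1 of 18 upstream genes. No receptor, subunit or inhibitor was among them. With GC-1, 2 of 29 further targets rose (6.90%), 1 of 23 chemokines and 1 of 18 upstream genes. The counts over all lists depended on the fit, and so did the absence of falls. With T3, 6 rose and 4 fell without T3 replicate 3, 6 and 3 with the interquartile range as covariate, and 9 and 2 with trend and robust variance, while 4 rose and 0 fell without vehicle replicate 1 or 3 or T3 replicate 1. With GC-1, 6 rose and 1 fell without T3 replicate 3, 7 and 1 with array weights, and at most 1 rose and 0 fell without any 1 of the GC-1 or vehicle arrays.

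GADD45B, a stress-induced inhibitor of JNK signalling and NF-kB target, had the largest rise among them. It read 7.774, 7.852 and 7.783 with GC-1, 8.016, 8.005 and 7.922 with T3 and 7.532, 7.541 and 7.394 with vehicle, so that no groups overlapped. The rise was 1.24-fold with GC-1 (log2 0.31 ± 0.057 SE, adjusted p = 0.0135) and 1.41-fold with T3 (log2 0.49 ± 0.057 SE, adjusted p = 0.000433). Its 4 probe sets ranged from 0.31 to 0.82 with GC-1 and from 0.43 to 0.88 with T3.

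TNFRSF1A, the main receptor for tumour necrosis factor, read 8.899, 8.942 and 8.892 with GC-1, 9.163, 9.076 and 8.954 with T3 and 8.611, 8.710 and 8.603 with vehicle. It rose 1.21-fold with GC-1 (log2 0.27 ± 0.061 SE, adjusted p = 0.0408) and 1.34-fold with T3 (log2 0.42 ± 0.061 SE, adjusted p = 0.00214). Both ligands stood clear of vehicle. At most 1 of the 94 related genes passed with GC-1 when 1 GC-1 or vehicle array was left out. TNFRSF1A and GADD45B thus did not both keep their GC-1 calls in those fits. None of the other 17 measured genes of upstream signalling passed, and the kinase subunits CHUK and IKBKB had differences of -0.03 and -0.17 with GC-1 and of -0.03 and -0.02 with T3.

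With T3 the other genes that rose were IL32 (0.33), a cytokine, C3 (0.26), the central complement protein, TNIP1 (0.24), a partner of A20, IER3 (0.23), an early survival gene, and CCL16 (0.22), a chemokine made by liver. Their values with GC-1 were 0.23, 0.17, 0.17, 0.12 and 0.17, with adjusted p from 0.0659 to 0.367. With GC-1 the others that rose were CXCL10 (0.25), an interferon-induced chemokine, and BCL2L1 (0.24), an anti-apoptotic gene. Their values with T3 were 0.07 (adjusted p = 0.469) and 0.18 (adjusted p = 0.0615). The 3 probe sets of BCL2L1 ranged from 0.22 to 0.26 with GC-1 and from 0.18 to 0.34 with T3. CXCL10 and CCL16 were the chemokines that passed, out of 23 measured beside the members.

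None of the 8 measured NF-kB subunits and inhibitors in the lists passed with either ligand. The subunits RELA and NFKB1 had differences of 0.08 and -0.08 with GC-1 and of 0.14 and -0.06 with T3, and NFKBIE, a second inhibitor of the IkB family, -0.14 and -0.02. None of the 16 chemokine receptors passed. CCR6, the receptor of CCL20, stood at 0.08 with GC-1 and 0.18 with T3.

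**Figure D4:**
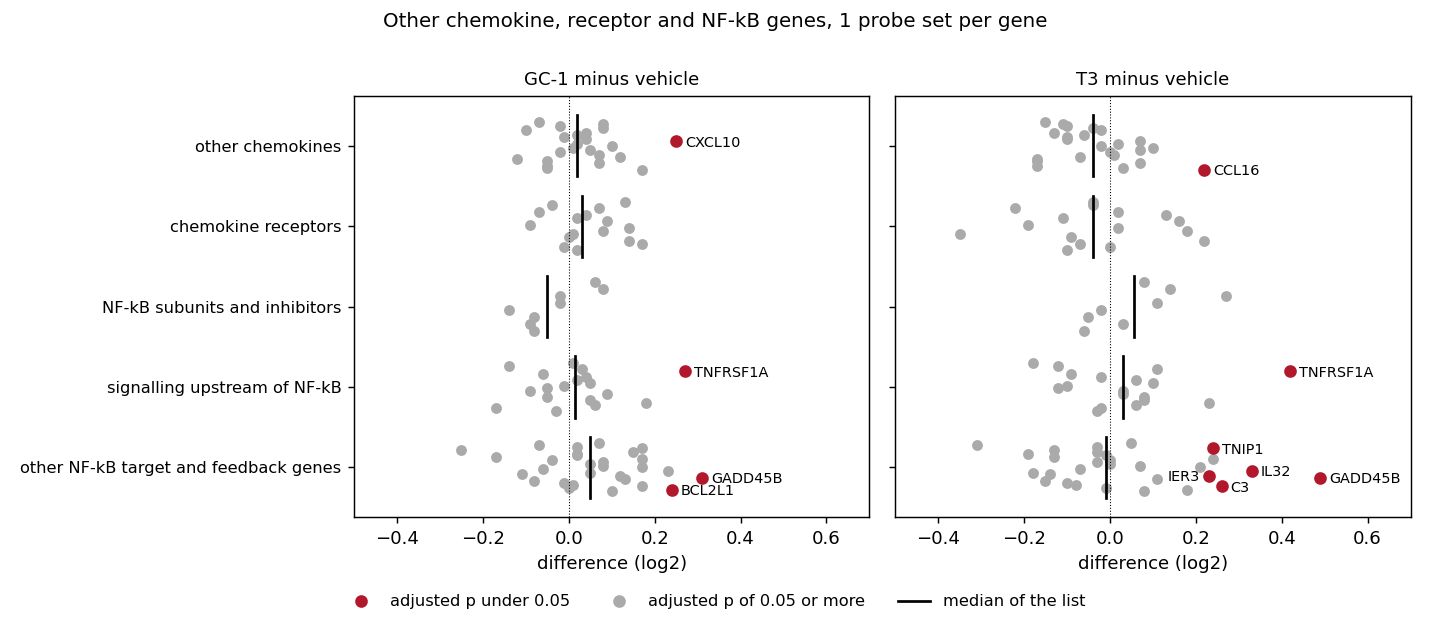
Difference (log2) from vehicle of 94 other chemokine, receptor and NF-kB genes by list, with GC-1 on the left and T3 on the right. Red points passed at an adjusted p under 0.05 and carry the gene's name, and a black bar marks each list's median. All named points lie above zero, and the medians lie close to it.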

How the data were processed

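Messenger RNA was measured in HepG2 cells on 9 Affymetrix arrays, 3 for each of GC-1, T3 and vehicle. The authors deposited log2 signals, 1 per probe set and array. The submitters' processing notes name RMA as the method, without a version. The log base was inferred from their range, 3.15 to 14.5. Array annotation named 1 gene for 19064 probe sets, and 62 array controls were left out. Groups and replicate numbers come from the titles. Scanner files and array detection calls were not used, so absence could not be called for dim probe sets. Precision is limited by the number of arrays.

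Group means were fitted over all 9 arrays with limma 3.58.1 in R 4.3.3 (lmFit, eBayes, two-sided), with Benjamini-Hochberg adjustment over 22215 probe sets and a threshold of 0.05. The fit was tested on simulated data. The members, lists and alternatives were chosen with earlier results of these data known. All probe sets of the members were named, together with every gene of the lists that passed with either ligand and the 5 genes most correlated with CCL20. Other genes were named for context after their values were seen. Alternatives were other normalizations, a filter on means under 5, other variance models, array weights, the interquartile range as covariate, 2-group fits, a replicate block and leaving out arrays. Promoter windows were read from RefSeq tables with pandas 2.3.3 and aligned with Biopython 1.88.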

Additional observations from a re-analysis of the deposited data

How the results depend on the processing

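Among the single probe sets, the direction and the side of the threshold were kept in 598 of 678 combinations of a result and an alternative, the call was lost in 34 and gained in 3, and the sign turned in 43, all of them in differences that did not pass. Probe sets changed with GC-1 numbered 3 of 12 as reported and 0 to 3 when 1 array was left out. They numbered 1 with equal median and median absolute deviation and 1 with a replicate block. With T3 they numbered 2, then 1 to 2 when 1 array was left out, 1 with only the groups compared and 1 with the replicate block. Trend and robust variance gave 3 with T3, CCL20 among them and lower. The fit without T3 replicates 1 and 2 was added after seeing the data. Between the ligands the count was 0 in all 19 alternatives. The causes were not tested, except that leaving out arrays leaves fewer samples. Same-numbered arrays showed no sign of pairing (correlations of their deviations from -0.262 to 0.0755, none above 0.1). Arrays of unlike number ran from -0.298 to 0.288. With 3 arrays per group these values cannot exclude pairing, and the labels do not state it. A call lost with the block is therefore not read as a weaker effect.

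Over all probe sets, 622 changed with GC-1, 274 to 1272 when 1 array was left out, 1347 with trend and robust variance, 1435 with array weights, 1061 with only the groups compared, 347 with the replicate block and 1061 without T3 replicates 1 and 2. With T3, 1222 changed, 661 to 1356 when 1 array was left out, 1957 with trend and robust variance, 2084 with the interquartile range as covariate, 753 with only the groups compared and 773 with the replicate block. Between the ligands the count was 0, 0 to 338 when 1 array was left out and 22 with trend and robust variance. Of the related genes, 4 changed with GC-1, 0 to 7 when 1 array was left out, 7 with trend and robust variance, 8 with array weights and 1 with the replicate block. With T3, 7 changed, 4 to 10 when 1 array was left out, 4 with equal median and median absolute deviation, 11 with trend and robust variance, 4 with the replicate block and 4 without T3 replicates 1 and 2 (3 higher and 1 lower). Falls among them appeared with T3 in 5 of 19 fits and with GC-1 in 3. Between the ligands 0 changed, and 0 to 2 when 1 array was left out.

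Signs turned as follows. The covariate gave 0.26 for CCL2 and -0.08 for CXCL2 with T3, 0.01 for CXCL8 (211506_s_at) with T3 and 0.09 for CXCL8 (202859_x_at) with GC-1, and, between the ligands, 0.02 for CCL20, -0.06 for 211506_s_at and 0.02 for TNFAIP3 (202644_s_at). Array weights gave 0.03 for 202859_x_at and 0.01 for 202644_s_at with T3, and 0.01 for CCL2 and -0.04 for 202859_x_at between the ligands. Quantile normalization gave 0.00 for 202859_x_at and TNFAIP3 (202643_s_at) and -0.02 for 211506_s_at between the ligands. Equal median and median absolute deviation gave 0.07 for CCL20, 0.02 for NFKBIA, -0.06 for 211506_s_at and 0.03 for 202644_s_at between the ligands. Without T3 replicates 1 and 2, T3 gave 0.21 for CCL2, -0.04 for CXCL2 and 0.02 for 211506_s_at, and the ligands differed by -0.05 in 211506_s_at. When 1 array was left out, signs also turned within these ranges. With T3 they were -0.24 to 0.01 for CCL2, -0.07 to 0.09 for CXCL2, -0.16 to 0.09 for 202859_x_at, -0.15 to 0.03 for 211506_s_at and -0.03 to 0.01 for 202644_s_at. With GC-1 they were -0.04 to 0.05 for CXCL1, -0.07 to 0.05 for 202859_x_at and -0.13 to 0.03 for 211506_s_at. Between the ligands they were -0.14 to 0.11 for CCL2, -0.09 to 0.15 for 202859_x_at and -0.06 to 0.06 for 211506_s_at. The filter on means under 5 left no value for CCL2 and CXCL2, whose signals lie near the lower end of the arrays, where small differences are hard to resolve.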
